A study of Mus musculus with 9 samples.

Results

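The 10 genes described here encode structural proteins and one receptor of the fibroblast and its matrix: the fibrillar collagen chains *Col1a1*, *Col1a2*, *Col3a1*, and *Col5a1*, the collagen VI chain *Col6a1*, the matrix proteins *Dcn*, *Sparc*, *Fbln2*, and *Postn*, and the receptor *Pdgfra*. They were taken by symbol from the gene counts of sorted muscle myeloid cells. All 10 were among the 50559 genes listed and all 10 were among the 16618 genes with enough counts to be tested.

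The cells came from the quadriceps of 4.5-week-old *mdx* mice, a strain that lacks dystrophin and models Duchenne muscular dystrophy. Mice of both sexes received vehicle, the mineralocorticoid receptor antagonist spironolactone, or the glucocorticoid receptor agonist prednisolone for 7 days, and each group had 3 libraries, each from 3 mice whose muscles were pooled. There was no healthy-strain group, so all 3 groups share the dystrophin defect. The authors list more females than males in each group, with fewer males in the prednisolone group than in the other 2. The sexes within a pool were not given. CD45+CD11b+ cells were sorted without separating live from dead cells. The comparisons below ask how the transcripts of the collagen matrix in this sort differed between the 2 drugs and vehicle.

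Connective tissue of skeletal muscle is made mostly by fibroblasts and fibro-adipogenic progenitors, which carry PDGF receptor alpha on their surface. Fibrillar collagens assemble from triple helices into the fibers that accumulate when dystrophic muscle becomes fibrotic, and small proteoglycans and matricellular proteins control their spacing, cross-linking, and binding to cells. Macrophages are known to regulate these cells and to clear collagen, and are not regarded as the main producers of fibrillar collagen.

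The depth was similar in all libraries, with 31469815 to 32943512 counts on genes. Markers of the labelled cell type were abundant: averaged over the 9 libraries and scaled by transcript length (TPM), *Lyz2* stood at 8770 TPM, *Cd68* at 6019 TPM, *Itgam*, the gene of CD11b, at 847 TPM, and *Ptprc*, the gene of CD45, at 300 TPM. The 10 matrix genes summed to 810 to 1641 CPM (counts scaled to a common library size after TMM normalization), which was 0.0810% to 0.164% of that scaled size. On the TPM scale with the length of the canonical transcript, the order of their mean levels was *Sparc* (156), *Col3a1* (150), *Col1a1* (133), *Col1a2* (97.8), *Postn* (56.4), *Col6a1* (29.5), *Fbln2* (16.1), *Col5a1* (14.3), *Dcn* (13.9), and *Pdgfra* (1.91). *Sparc* ranked 1004 and *Pdgfra* 12271 among 40303 genes ordered by TPM. The order depended on the lengths used. With all annotated exons merged, *Col1a1* came first at 210 TPM, *Sparc* and *Col3a1* followed, *Col6a1* (36.2) and *Postn* (35.6) changed places, *Col5a1* (24.3) passed *Fbln2* (19.2), and *Dcn* and *Pdgfra* stayed the lowest. *Col1a2*, *Col3a1*, *Col5a1*, *Postn*, and *Pdgfra* overlap annotated genes on the opposite strand, and the strand setting of the counting was not given in the sources used here, so reads of such partners could be included in their counts.

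Because the 10 genes varied together across the libraries, as described further on, the regions before their starts were compared for shared short motifs. The following stretches are the 250 bases before the start of transcription, given 5′ to 3′ on the gene's own strand (RefSeq, build GRCm38.p6). Capitals mark a CCAAT or a TATAAA. Col1a2 lies at chr6:4505368-4505617, Col3a1 at chr1:45311288-45311537, the downstream start of Postn at chr3:54360857-54361106, and Sparc at chr11:55420081-55420330. They are shown because they stand for a type I collagen chain, a type III collagen chain, a matricellular gene, and the gene with the highest TPM.
Col1a2: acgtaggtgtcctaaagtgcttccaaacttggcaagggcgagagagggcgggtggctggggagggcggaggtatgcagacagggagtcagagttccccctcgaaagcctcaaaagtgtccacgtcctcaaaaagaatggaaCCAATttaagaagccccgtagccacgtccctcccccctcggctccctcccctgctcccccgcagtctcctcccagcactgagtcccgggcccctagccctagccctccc
Col3a1: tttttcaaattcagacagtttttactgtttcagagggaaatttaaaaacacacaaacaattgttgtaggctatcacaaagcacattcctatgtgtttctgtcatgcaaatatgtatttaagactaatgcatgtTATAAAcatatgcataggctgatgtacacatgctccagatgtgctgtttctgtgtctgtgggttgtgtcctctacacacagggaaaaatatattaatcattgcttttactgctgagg
Postn: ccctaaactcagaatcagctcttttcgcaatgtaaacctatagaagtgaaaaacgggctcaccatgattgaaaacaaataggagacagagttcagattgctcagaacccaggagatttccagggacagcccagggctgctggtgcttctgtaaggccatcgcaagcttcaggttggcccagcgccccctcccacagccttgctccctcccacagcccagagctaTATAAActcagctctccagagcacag
Sparc: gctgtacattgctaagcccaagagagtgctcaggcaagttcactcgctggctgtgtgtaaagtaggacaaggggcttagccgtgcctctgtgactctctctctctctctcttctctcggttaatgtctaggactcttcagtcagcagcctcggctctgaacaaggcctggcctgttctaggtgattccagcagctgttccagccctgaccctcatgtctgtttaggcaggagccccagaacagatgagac

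The table of start regions held 8 of the 10 genes, without *Col1a1* and *Dcn*. *Postn* had 2 start regions, and a match in either was counted for the gene, whereas the shares are of single regions. Its TATAAA was in the downstream region only, and its CAGAC only in the upstream one, which is not printed above. CCAAT stood 109 bases before the start of *Col1a2*, and in 1 of the 8 genes against 33.8% of 32851 start regions of the same length, with both strands searched. TATAAA stood 117 bases before the start of *Col3a1* and 26 bases before that of *Postn*, which made 2 of 8 genes against 12.4% of all regions. GGGCGG was found in 3 genes (*Col1a2*, *Col5a1*, and *Fbln2*) against 32.7% of regions, and CAGAC, the core letters bound by SMAD proteins, in 6 genes against 42.2%. GNACA and TGTNC with 3 free bases between them, a strict form of the palindrome bound by glucocorticoid and mineralocorticoid receptors, were in none of the 8 genes and in 0.387% of all regions. These matches describe letters in short windows and are not measured binding sites.

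The fibrillar collagen genes were compared first. *Col1a1* and *Col1a2*, which encode the chains of type I collagen, are at chr11:94827050-94843868 and chr6:4504814-4541555 in build GRCm39. The CPM of *Col1a1* was 229.7, 306.7, and 293.1 in the vehicle libraries, 401, 276, and 371 in the spironolactone libraries, and 277, 278, and 324 in the prednisolone libraries. Spironolactone libraries 1 and 3 were the highest of all 9, whereas spironolactone library 2 lay within the vehicle range, so the groups overlapped. Replicates are pools of mice, and the *P* values here measure the spread between such pools. The fitted level was 1.26-fold the vehicle level with spironolactone (log2 difference 0.34 ± 0.14 SE, adjusted *P* = 0.491 by the edgeR quasi-likelihood test) and 1.06-fold with prednisolone (adjusted *P* = 0.855).

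*Col1a2* had a similar pattern over the libraries, with CPM of 133, 209, and 223 for vehicle, 259, 178, and 264 for spironolactone, and 164, 193, and 217 for prednisolone. Its 3 groups overlapped, and its log2 difference between spironolactone and vehicle was 0.31 ± 0.21 (adjusted *P* = 0.700, edgeR), and 0.11 without vehicle library 1. Prednisolone libraries averaged 191 ± 26.5 CPM (SD, *n* = 3) and vehicle libraries 188 ± 48.0 CPM.

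*Col3a1*, at chr1:45350698-45395840, encodes type III collagen, which forms fine fibers together with type I collagen. Its CPM was 222, 309, and 295 with vehicle, 446, 307, and 466 with spironolactone, and 279, 305, and 293 with prednisolone. All 3 spironolactone libraries were above all 3 prednisolone libraries, while spironolactone library 2 was just below the highest vehicle library. The fold difference between spironolactone and vehicle was 1.48 (95% interval 1.17 to 1.87, adjusted *P* = 0.213, edgeR), and that between spironolactone and prednisolone was 1.39 (1.10 to 1.76, adjusted *P* = 0.0928).

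*Col5a1*, at chr2:27776397-27929526, encodes a chain of type V collagen, which starts and limits the growth of type I fibrils. It was measured at 30.4, 43.7, and 44.8 CPM with vehicle, 65.2, 37.5, and 53.0 CPM with spironolactone, and 45.7, 46.2, and 56.1 CPM with prednisolone. The prednisolone libraries were all above the vehicle libraries, with less than 1 CPM between the nearest pair, and the fitted fold was 1.24 (0.914 to 1.69, adjusted *P* = 0.539, edgeR). The spironolactone libraries overlapped with both other groups.

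*Col6a1*, at chr10:76543440-76562283, encodes a chain of type VI collagen, whose beaded filaments tie the basement membrane of the muscle fiber to the interstitial matrix. Its CPM was 28.5, 48.1, and 40.3 with vehicle, 65.7, 40.3, and 59.0 with spironolactone, and 45.3, 46.6, and 49.3 with prednisolone. The groups overlapped, with 1.41-fold the vehicle level in spironolactone (1.04 to 1.92, adjusted *P* = 0.481, edgeR) and 1.21-fold in prednisolone (0.889 to 1.64, adjusted *P* = 0.604).

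**Figure D1:**
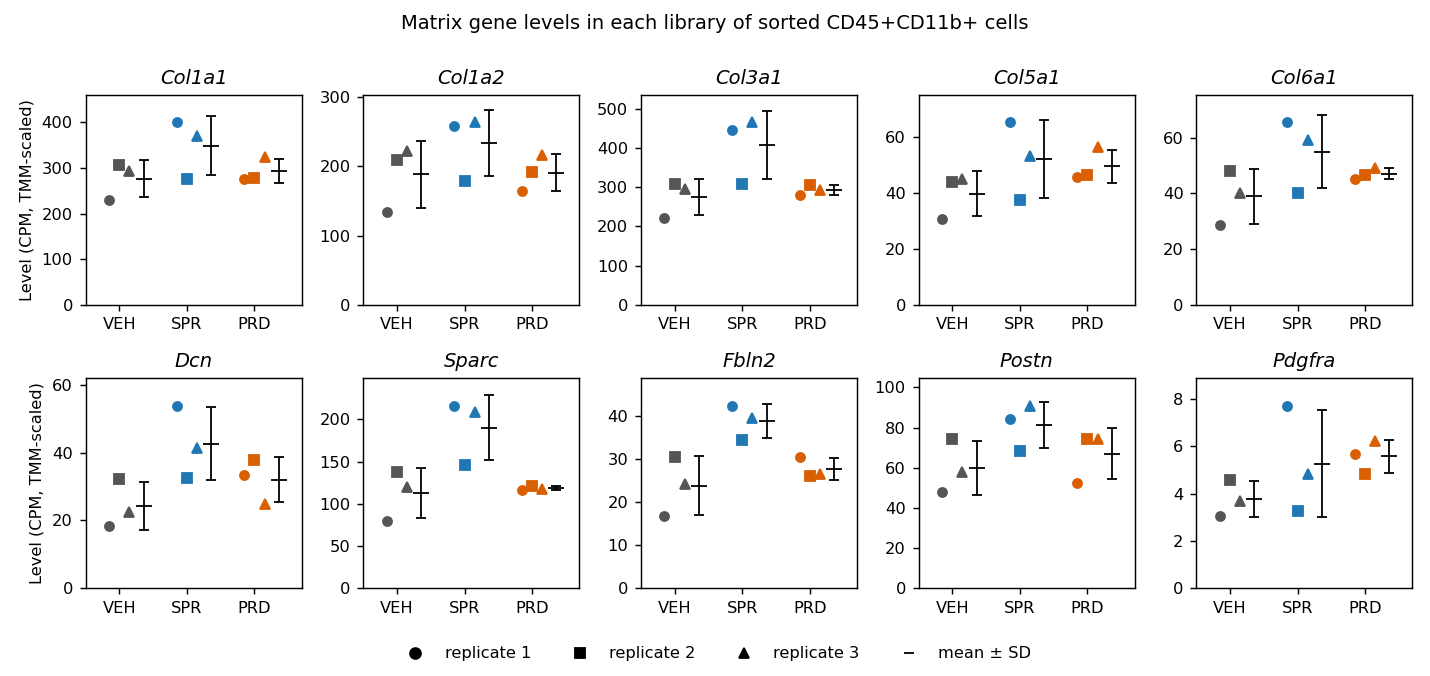
CPM of the 10 matrix genes (vertical axis, from 0, a scale of its own for each gene) in the 9 libraries, by group: VEH, vehicle; SPR, spironolactone; PRD, prednisolone. Symbols are the 3 replicates and the bars mark the mean ± SD. Vehicle replicate 1 is the lowest of the 9 libraries for each of the 10 genes, and spironolactone replicate 2 is the lowest of its group for each of the 10.

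Of the 4 non-collagen matrix protein genes, 3 had spironolactone ranges above the vehicle range, against 6.99% of all tested genes. The authors had named these 3 (*Sparc*, *Fbln2*, and *Dcn*) among matrix genes increased by spironolactone in the same libraries. The count is therefore a description and no separate support. *Sparc*, at chr11:55285317-55314067, encodes osteonectin, a secreted protein that binds collagen and guides its assembly, and which is also made by endothelial cells. Its CPM was 80.0, 138, and 120 with vehicle, 216, 146, and 208 with spironolactone, and 117, 122, and 117 with prednisolone. Every spironolactone library was above every library of the other 2 groups. The fold was 1.69 against vehicle (1.26 to 2.26, unadjusted *P* = 0.00223, adjusted *P* = 0.187, edgeR) and 1.61 against prednisolone (1.20 to 2.15, adjusted *P* = 0.0654), neither past the threshold of 0.05.

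*Fbln2*, at chr6:91189437-91249522, encodes fibulin-2, a glycoprotein of elastic fibers and basement membranes. It was measured at 16.9, 30.4, and 24.1 CPM with vehicle, 42.3, 34.4, and 39.5 CPM with spironolactone, and 30.4, 26.0, and 26.5 CPM with prednisolone. The spironolactone libraries again did not overlap with either other group. The fold against vehicle was 1.63 (1.26 to 2.12, unadjusted *P* = 0.00152, adjusted *P* = 0.167, edgeR), the lowest adjusted *P* of the 10 genes in that comparison, and the fold against prednisolone was 1.40 (adjusted *P* = 0.118).

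*Dcn*, at chr10:97315275-97358155, encodes decorin, a small proteoglycan that coats collagen fibrils and binds TGF-β. Its CPM was 18.4, 32.1, and 22.5 with vehicle, 53.8, 32.5, and 41.5 with spironolactone, and 33.3, 37.8, and 24.96 with prednisolone. Spironolactone library 2 exceeded the highest vehicle library by less than 1 CPM, and the prednisolone libraries overlapped with both groups. The log2 difference between spironolactone and vehicle, 0.81 ± 0.24 SE, was the largest of the 10 and had an adjusted *P* of 0.303 (edgeR). This rank turned on single libraries. Without spironolactone library 1 the *Dcn* difference was 0.61, below *Sparc* (0.66) and *Fbln2* (0.64), and without vehicle library 3 it was 0.75, below *Sparc* (0.80).

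*Postn*, at chr3:54268501-54298471, encodes periostin, a matricellular protein induced by TGF-β in fibrotic tissue. Its CPM was 47.8, 74.2, and 58.0 with vehicle, 84.4, 68.6, and 90.9 with spironolactone, and 52.5, 74.5, and 74.1 with prednisolone. Spironolactone library 2 lay below the highest vehicle library and prednisolone overlapped with vehicle. Spironolactone stood at 1.36-fold the vehicle level (1.03 to 1.78, edgeR adjusted *P* = 0.478), and prednisolone at 1.12-fold (0.852 to 1.46, adjusted *P* = 0.760).

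*Pdgfra*, at chr5:75311994-75358876, the receptor that marks fibro-adipogenic progenitors, had the lowest TPM of the 10. Its CPM was 3.07, 4.58, and 3.71 with vehicle, 7.71, 3.29, and 4.81 with spironolactone, and 5.68, 4.83, and 6.20 with prednisolone. It differed from the other 9 genes in that its mean was highest with prednisolone, at 5.57 ± 0.695 CPM against 5.27 ± 2.25 CPM with spironolactone and 3.79 ± 0.760 CPM with vehicle. The 3 prednisolone libraries were above the 3 vehicle libraries (1.47-fold, 0.973 to 2.22, unadjusted *P* = 0.0647, adjusted *P* = 0.393, edgeR), and the direct log2 difference between spironolactone and prednisolone was -0.08 ± 0.27.

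Between spironolactone and vehicle, 0 of the 10 genes passed the adjusted threshold by edgeR, where 0.0181% of all tested genes did. At an unadjusted *P* under 0.05, 7 of 10 were higher (*Col1a1*, *Col3a1*, *Col6a1*, *Dcn*, *Sparc*, *Fbln2*, and *Postn*), against 5.21% of all genes that were higher at that level. The ranges did not overlap for 3 genes (*Sparc*, *Fbln2*, and *Dcn*). All 10 fitted differences were above 0, against 50% of all genes, with a median log2 difference of 0.49 beside 0.00009 over all genes tested. The 10 genes are not independent of one another and were chosen with earlier results of these data known. These counts therefore describe the set and do not test it. The calls depended on the tool and filter. With DESeq2, 4 of the 10 and 263 of all genes passed the threshold. The 4 were *Sparc* (DESeq2 adjusted *P* = 0.00374), *Fbln2* (0.0118), *Dcn* (0.0173), and *Col3a1* (0.0269). With limma-voom 0 of the 10 and 0 of all genes passed. EdgeR without the low-count filter called 7 of the 10 and 528 of all genes. All 10 stayed above vehicle in each of the 8 other settings and with each of the 9 libraries left out in turn. Single libraries moved some sizes by more than 1.5 times: without vehicle library 1 the log2 difference was 0.22 for *Col1a1*, 0.31 for *Col6a1*, and 0.23 for *Col5a1*, and without spironolactone library 1 it was 0.19 for *Col5a1* and 0.10 for *Pdgfra*. Without spironolactone library 2 it was 0.47 for *Col1a2* and 0.72 for *Pdgfra*.

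Between prednisolone and vehicle, 0 of 10 genes passed by edgeR, where 1.76% of all genes did, and 0 of 10 had an unadjusted *P* under 0.05, where 7.13% of all genes were higher at that level. DESeq2 and limma-voom also called 0 of the 10, where they called 684 and 262 of all genes. EdgeR without the low-count filter called *Dcn* (adjusted *P* = 0.0213) and 1019 of all genes. All 10 fitted differences were above 0, against 47.8% of all genes. The 2 genes with ranges apart (*Col5a1* and *Pdgfra*) compare with 10.4% of all genes, and the median log2 difference was 0.19 beside -0.01 over all genes. Without vehicle library 1, the lowest of the 9, that median was 0.02 and 6 of the 10 were above 0. The differences were then -0.033 for *Col1a1*, -0.18 for *Col1a2*, -0.047 for *Col3a1*, and -0.12 for *Sparc*. They were 0.16 for *Col5a1*, 0.09 for *Col6a1*, 0.02 for *Fbln2*, 0.23 for *Dcn*, 0.02 for *Postn*, and 0.43 for *Pdgfra*. Without vehicle library 2 the median was 0.37, and 4 of the 10 were higher at an unadjusted *P* under 0.05 (edgeR). With no library left out, 2360 of all genes differed at that level in either direction, and without vehicle library 2 the number was 1905. Differences in that fit included 0.45 for *Col6a1*, 0.65 for *Dcn*, 0.43 for *Fbln2*, and 0.34 for *Postn*. Intervals such as 0.856 to 1.31 for *Col1a1* and 0.840 to 1.34 for *Col3a1* include differences in both directions, so they bound the change and do not show equal levels.

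Between spironolactone and prednisolone, 0 of 10 genes passed by edgeR, where 5.17% of all genes did, and 9 of 10 differences were above 0, against 53.4% of all genes. At an unadjusted *P* under 0.05, *Col3a1*, *Sparc*, and *Fbln2* were higher with spironolactone, and the same 3 had ranges apart, against 11.4% and 15.1% of all genes. DESeq2 called *Sparc* (adjusted *P* = 0.00334) and *Col3a1* (0.0303), and 1594 of all genes. Limma-voom called 0 of the 10 and 822 of all genes. EdgeR on these 2 groups alone called *Sparc* (edgeR adjusted *P* = 0.00953) and *Fbln2* (0.0129), and 1598 of all genes. Without the low-count filter edgeR called 4 of the 10 and 1940 of all genes. The call count also turned on single libraries. Without vehicle library 1, a library of neither drug group, edgeR called 3 of the 10. It then called 1898 of all genes, against 859 with no library left out. EdgeR called 1 of the 10 and 800 of all genes without vehicle library 2, and 2 and 412 without spironolactone library 2. The comparisons share their vehicle or drug libraries and are not separate evidence.

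**Figure D2:**
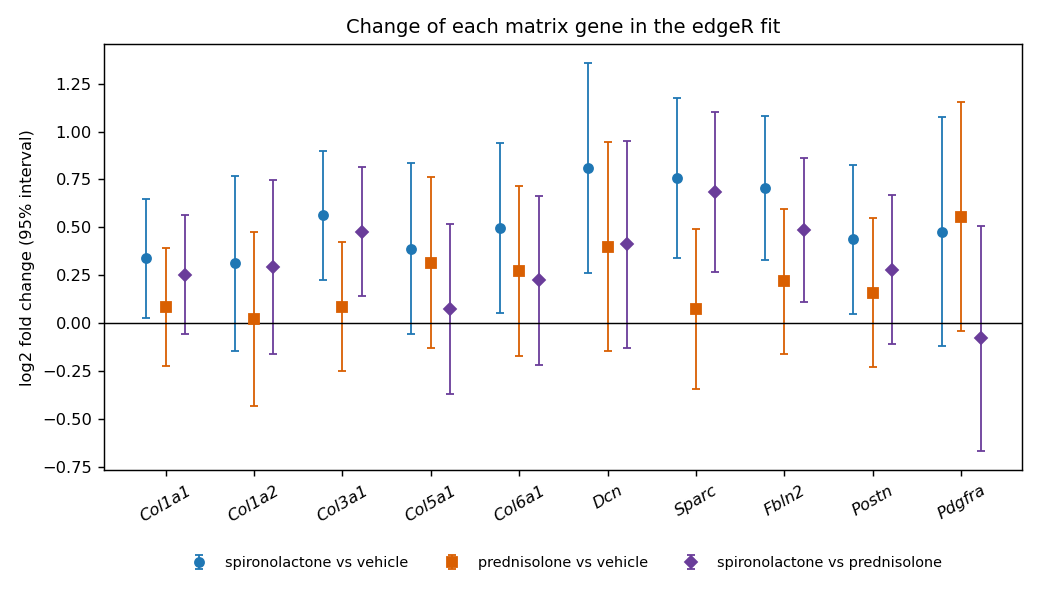
Fitted log2 differences of the 10 genes with 95% intervals (edgeR) for the 3 comparisons of the groups; the line at 0 marks equal levels. The spironolactone estimates against vehicle are all above 0, from 0.31 for *Col1a2* to 0.81 for *Dcn*, and the prednisolone estimates lie from 0.02 to 0.56.

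The 10 genes varied together from library to library. The Pearson correlation of log2 CPM over the 9 libraries ranged from 0.53 (*Postn* with *Pdgfra*) to 0.98 (*Col3a1* with *Sparc*) over the 45 pairs of genes, with a median of 0.85. These values are descriptions over libraries that include the group differences. Vehicle library 1 had a summed level of 810 CPM against 1195 and 1124 CPM in the other vehicle libraries. Spironolactone libraries 1 and 3 reached 1641 and 1599 CPM and library 2 was at 1124 CPM, the same as vehicle library 3, while the prednisolone libraries were at 1049, 1133, and 1188 CPM. Over all 3 libraries of a group, the spread of the summed level was thus smallest with prednisolone (SD 69.7 CPM against 205 with vehicle and 287 with spironolactone). That order rests on vehicle library 1 and spironolactone library 2. The other libraries of those 2 groups lay within narrower ranges than the 3 prednisolone libraries. Nor did the order hold for each gene: the prednisolone SD was 2.65 CPM around a mean of 119 CPM for *Sparc*, but 12.6 around 67.0 for *Postn*, against 11.5 around 81.3 with spironolactone. In bulk RNA of a sort, fewer cells of a type and less RNA per cell cannot be told apart.

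Other genes with a pattern over the 9 libraries most like the mean of the 10 were *Tjp1* (Pearson r = 0.98), *Efnb2* (0.98), *Col6a2* (0.98), *Smoc2* (0.97), *Tcim* (0.96), *Riox1* (0.96), *B3gat3* (0.95), and *Fzd4* (0.95), out of 13229 genes compared, of which 54 were over 0.9. *Col6a2* encodes the partner chain of *Col6a1*, and *Smoc2* is a secreted relative of *Sparc*.

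Within the set, the balance between genes was compared as well. As a share of the summed CPM of the 10, *Sparc* was 9.87%, 11.5%, and 10.7% in the vehicle libraries, 13.2%, 13.0%, and 13.0% in the spironolactone libraries, and 11.1%, 10.7%, and 9.86% in the prednisolone libraries. *Col1a1* was 28.3%, 25.7%, and 26.1% with vehicle, 24.4%, 24.6%, and 23.2% with spironolactone, and 26.4%, 24.6%, and 27.3% with prednisolone. The spironolactone libraries, library 2 included, were above all others for the *Sparc* share and below all others for the *Col1a1* share, the latter by a near tie of 24.55% in spironolactone library 2 with 24.56% in prednisolone library 2. The ratio of *Col1a1* to *Col3a1* was 1.03, 0.993, and 0.993 with vehicle, 0.899, 0.899, and 0.795 with spironolactone, and 0.992, 0.914, and 1.11 with prednisolone. The *Col6a1* share was highest with prednisolone, at 4.32%, 4.12%, and 4.15% against 3.52% to 4.03% in the other 6 libraries, and so was the *Col5a1* share, at 4.35%, 4.08%, and 4.72% against 3.32% to 3.98%. The genes shown for their shares were picked after their values were seen, and the shares were not tested.

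**Figure D3:**
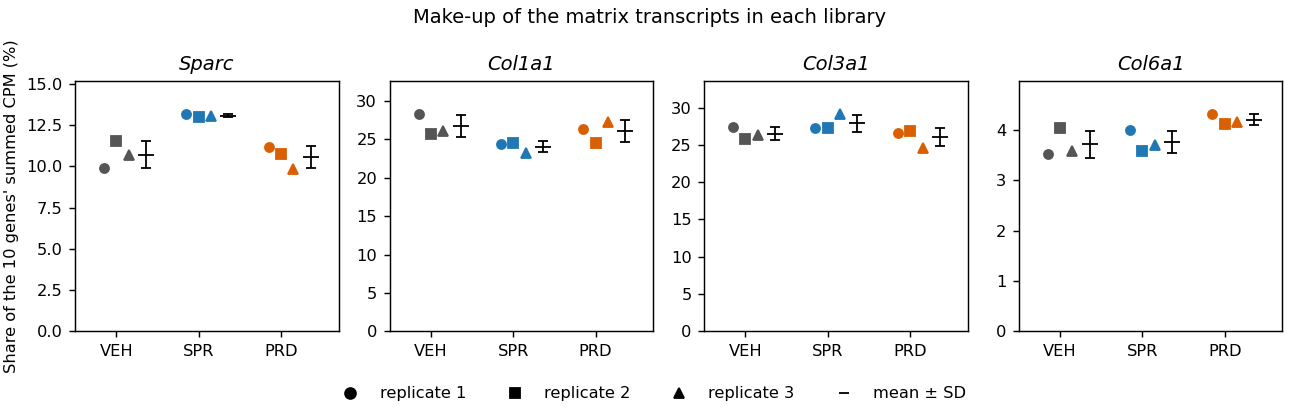
Share of the summed CPM of the 10 genes (%, vertical axis from 0) taken by *Sparc*, *Col1a1*, *Col3a1*, and *Col6a1* in each library; VEH, vehicle; SPR, spironolactone; PRD, prednisolone, with the mean ± SD of 3 replicates. The *Sparc* share averages 13.1% with spironolactone against 10.7% with vehicle and 10.6% with prednisolone, and the spironolactone range lies above both other ranges, which overlap with each other.

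Neighbouring genes of the matrix pathway were read from lists of related genes. Over all tested genes, 50% were above vehicle with spironolactone, 5.21% were higher at an unadjusted *P* under 0.05, and 0.0181% were called. Of 7 other fibrillar collagen genes 5 were tested, 5 of 5 were above vehicle with spironolactone, and 0 passed by edgeR, with 0 at an unadjusted *P* under 0.05. *Col5a2*, the partner chain of *Col5a1*, was at 31.7 ± 10.1 CPM with vehicle, 39.97 ± 10.6 with spironolactone, and 37.0 ± 5.53 with prednisolone. Of 6 tested genes for collagen VI and the fibril-associated collagens, 5 were above vehicle with spironolactone and 0 passed. An unadjusted *P* under 0.05 was found for 4, including *Col6a2* (1.41-fold, 1.10 to 1.82, adjusted *P* = 0.341, edgeR). With prednisolone 5 of the 6 were also above vehicle, against 47.8% of all genes, and 0 passed (edgeR). At an unadjusted *P* under 0.05, 3 were higher with prednisolone, against 7.13%. Ranges were apart, and higher than vehicle, for 2 with prednisolone, against 10.4% of all genes, and for 0 with spironolactone, against 6.99%. Of 7 tested small leucine-rich proteoglycans, the family of *Dcn*, all 7 were above vehicle with spironolactone and 0 passed by edgeR (4 at an unadjusted *P* under 0.05). *Bgn* (biglycan), the family's highest outside the 10 by TPM, was at 75.9 ± 24.3, 90.6 ± 15.4, and 88.4 ± 13.2 CPM with vehicle, spironolactone, and prednisolone.

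All 11 elastic fiber and microfibril genes were above vehicle with spironolactone, 7 with an unadjusted *P* under 0.05 and 0 past the adjusted threshold (edgeR), against 50% and 5.21% of all genes for the first 2 counts, with a median log2 difference of 0.63. *Emilin1*, the highest of them by TPM, was at 1.07-fold (adjusted *P* = 0.832). Between the drugs, *Mfap4*, a microfibril protein, was higher with spironolactone (8.18 ± 1.99 against 4.47 ± 0.687 CPM, 1.83-fold, adjusted *P* = 0.0347, edgeR), as was *Fmod*, a collagen-binding proteoglycan (4.80 ± 2.73 against 1.95 ± 0.576 CPM, adjusted *P* = 0.049994), with 7.93 CPM in spironolactone library 2 against 3.60 and 2.88 in the other 2. Of 24 collagen-modifying enzymes and chaperones, 18 were above vehicle with spironolactone and 0 passed (edgeR, 5 higher at an unadjusted *P* under 0.05), beside the same shares of all genes. *P4hb*, the highest by TPM, was at 0.964-fold. With prednisolone 20 of the 24 were above vehicle and 0 passed (edgeR, 5 higher and 1 lower at an unadjusted *P* under 0.05). Of all genes, 47.8% were above vehicle with prednisolone and 7.13% were higher at that level. The median log2 difference of the list was 0.21 with spironolactone and 0.20 with prednisolone. Between the drugs *Loxl3*, a lysyl oxidase-like enzyme that cross-links collagen, was higher with spironolactone (17.2 ± 4.66 against 10.4 ± 0.726 CPM, adjusted *P* = 0.0245, edgeR) and *Colgalt1*, which adds galactose to collagen, was lower (243 ± 12.2 against 305 ± 14.4 CPM, adjusted *P* = 0.0483).

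Markers of several cell types that the sort could hold as a minor fraction were also read in the 9 libraries. The 20 fibro-adipogenic markers summed to 541 to 640 CPM with vehicle, 596 to 717 with spironolactone, and 620 to 676 with prednisolone, ranges that overlapped. Most of that sum was *Gsn*, which macrophages also make (486 ± 23.2, 509 ± 46.0, and 526 ± 22.6 CPM). Without *Gsn*, a choice made after its values were seen, they summed to 78.8 to 131 CPM with vehicle, 139 to 171 with spironolactone, and 115 to 129 with prednisolone, and 1 of the 20, *Tcf21*, was at 0. Of 19 tested with *Gsn*, 19 were above vehicle with spironolactone, against 50% of all genes. Of these, 8 were higher at an unadjusted *P* under 0.05, against 5.21%, and 0 passed the adjusted threshold (edgeR), against 0.0181%. Between the drugs 2 of the 19 passed, against 5.17% of all genes, *Cd34* (1.96-fold higher with spironolactone, adjusted *P* = 0.00729, edgeR), which endothelial cells also carry, and *Meox2* (1.95-fold, adjusted *P* = 0.0303). Endothelial markers (13 genes) summed to 212 to 274 CPM with vehicle, 335 to 497 with spironolactone, and 205 to 272 with prednisolone. All 13 were above vehicle with spironolactone, against 50% of all genes, with a median log2 difference of 1.11. Of these, 12 were higher at an unadjusted *P* under 0.05, against 5.21%, and 0 passed the threshold (edgeR), against 0.0181%. Between the drugs 6 of the 13 passed the threshold, against 5.17% of all genes. They included *Pecam1* (2.13-fold, edgeR adjusted *P* = 0.00729), *Fabp4* (2.17-fold, 0.00782), *Cdh5* (2.19-fold, 0.0178), and *Egfl7* (2.67-fold, 0.0192). Skeletal muscle fiber markers summed to 296 to 453, 562 to 955, and 437 to 671 CPM in the same order, with *Acta1* at 137.0 ± 31.5, 246 ± 64.3, and 203 ± 41.8 CPM. All 13 tested muscle fiber markers were above vehicle with spironolactone, against 50% of all genes, with a median log2 difference of 0.94. Of these, 10 were higher at an unadjusted *P* under 0.05, against 5.21%, and 0 passed the threshold (edgeR), against 0.0181%. *Mb* was higher with spironolactone than with prednisolone (2.36-fold, edgeR adjusted *P* = 0.0429), and *Myh1* was higher with prednisolone than with vehicle (2.10-fold, adjusted *P* = 0.0239). The 10 myeloid markers summed to 18142 to 21623, 18741 to 20903, and 20122 to 21211 CPM, with ranges that overlapped. Between the drugs, 4 of the 10 were higher with spironolactone, against 53.4% of all genes, all 4 at an unadjusted *P* under 0.05, against 11.4%. The other 6 were lower, 1 of them (*Itgam*) past the threshold (edgeR adjusted *P* = 0.0353), which 5.17% of all genes passed. The part of these cell types in the matrix gene differences was not tested.

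**Figure D4:**
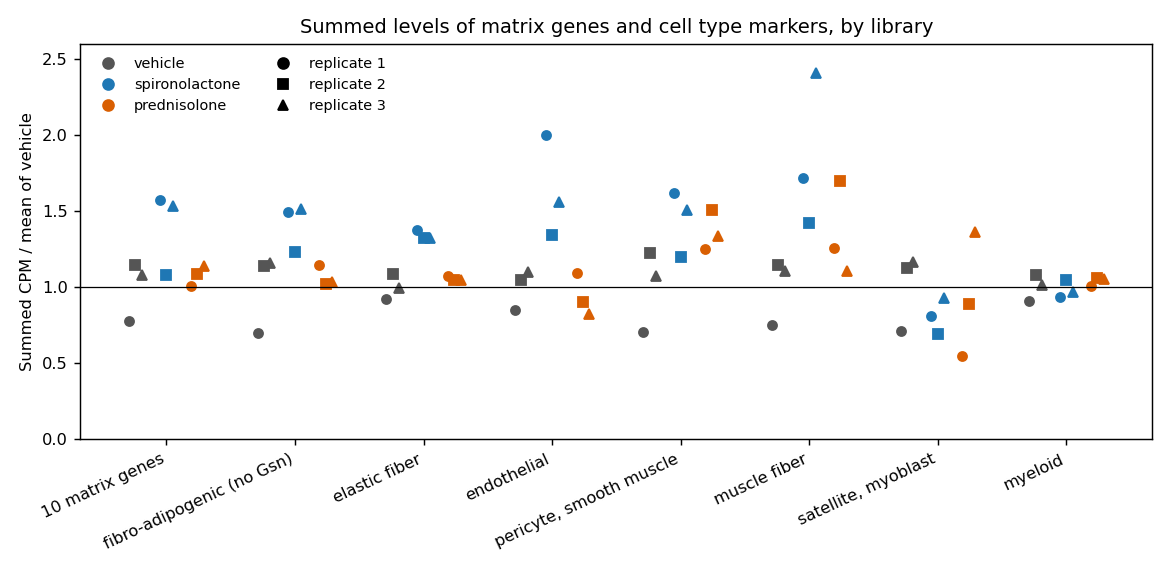
Summed CPM of gene lists in each library, divided by the mean of the 3 vehicle libraries (vertical axis, from 0), colored by group with 1 symbol per replicate; the line at 1 marks the vehicle mean. The matrix genes lie between 0.777 and 1.57, the endothelial markers between 0.825 and 1.999, the muscle fiber markers between 0.747 and 2.41, and the myeloid markers between 0.905 and 1.08.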

How the data were processed

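Counts per gene from 9 libraries of sorted CD45+CD11b+ quadriceps cells were analysed. The authors made the deposited counts by alignment to mm39 and counting per gene, and the submitters' processing notes name HISAT2 2.2.1, HTSeq 0.11.3, and DESeq2 1.32.0. The annotation release and strand setting are not given in the sources used here. The counts are whole numbers without normalization. Rows that name no gene, 17.2% to 21.8% of a library, were left out. Deposited tables of the authors' own comparisons (log2 fold changes and *P* values) were not used.

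Libraries were grouped by their labels. Genes passing filterByExpr (minimum count 10, 16618 genes) were fitted with edgeR 4.0.16 (TMM, robust quasi-likelihood, all 9 libraries in one model) under R 4.3.3, with two-sided tests, Benjamini-Hochberg adjustment over all tested genes, and a threshold of 0.05. The fitting steps were tested on simulated data. DESeq2 1.42.0, limma-voom (limma 3.58.1), other scalings and filters, and left-out libraries were the alternatives. Levels are TMM-scaled CPM. TPM used GENCODE vM39 canonical transcript lengths, matched by symbol for 40303 genes. Gene positions are GRCm39 and start regions are RefSeq GRCm38.p6. Genes outside the 10 are named when past the threshold in any comparison (at most 4 a list) highest in TPM of their list, or among the 8 genes most like the mean of the 10. *Tcf21* was named after its values were seen. The members and lists were chosen with earlier results of these data known.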

Additional observations from a re-analysis of the deposited data

How the results depend on the processing

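For spironolactone against vehicle, all 170 values (10 genes, 8 other settings, and 9 left-out libraries) were positive, and the median log2 difference ranged from 0.48 to 0.49 over the settings and from 0.33 to 0.70 over the left-out libraries, from 0.11 to 0.47 for *Col1a2* and from 0.10 to 0.72 for *Pdgfra*. The number of the 10 genes called went from 0 to 4 with DESeq2 and 7 without the low-count filter (0 with each library left out). For prednisolone against vehicle it went from 0 to 1 without the filter (0 with each library left out), while the median ranged from 0.02 to 0.37 with a library left out. For spironolactone against prednisolone it went from 0 to 2 with DESeq2, 2 with edgeR on these 2 groups, 4 without the filter, and 0 to 3 with a library left out. The cause was not tested. Over all genes, the calls of the 3 comparisons in this order were 3, 293, and 859, against 263, 684, and 1594 with DESeq2, 528, 1019, and 1940 without the filter, and 0 to 34, 69 to 826, and 232 to 1898 with a library left out. Limma-voom called 0 in the first comparison (1587 at an unadjusted *P* under 0.05), and edgeR on 2 groups called 1598 in the last.

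With a library left out, the prednisolone difference from vehicle ranged from -0.033 to 0.17 for *Col1a1*, -0.18 to 0.16 for *Col1a2*, -0.047 to 0.18 for *Col3a1*, and -0.12 to 0.24 for *Sparc*, each lowest without vehicle library 1. The spironolactone difference from prednisolone ranged from -0.13 to 0.26 for *Col5a1* and from -0.46 to 0.17 for *Pdgfra*. The sign turned in 5 of these values against vehicle and 3 against prednisolone.

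Replicate numbers gave no clear pairing of the libraries, with 1 of 9 libraries closest to its own number in both other groups. Correlations were -0.04 to 0.15 for the 9 same-numbered pairs and -0.17 to 0.04 for the 18 other pairs. Over 0.1 were 2 of the 9 and 0 of the 18. Both were of vehicle with spironolactone, libraries 1 (0.12) and 3 (0.15), so pairing of these groups is not excluded. With the replicate number as a block, 0 of the 10 genes were called in each comparison, their medians were 0.48, 0.19, and 0.30, and 8, 336, and 1082 of all genes were called. The 3 pools a group limit the precision of each value.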

Other observations

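Pericyte, tendon, and nerve sheath genes were also read in the 9 libraries. Of 9 tested pericyte and smooth muscle genes, 8 were higher with spironolactone than with prednisolone, against 53.4% of all tested genes, with a median log2 difference of 0.76. Past the threshold were 3 of the 9, against 5.17% of all genes. Higher were *Mcam* (10.9 ± 1.88 against 4.15 ± 1.28 CPM, adjusted *P* = 0.0104, edgeR) and *Rgs5* (34.1 ± 11.3 against 13.1 ± 2.54 CPM, adjusted *P* = 0.0215). The exception, *Cspg4* (NG2, a pericyte surface proteoglycan), was lower with spironolactone (18.8 ± 2.40 against 67.3 ± 8.65 CPM, adjusted *P* = 0.000118, edgeR) and higher with prednisolone than with vehicle (22.8 ± 5.11 CPM, adjusted *P* = 0.000495). *Des*, the highest of the list by TPM, was at 1.01-fold between the drugs (adjusted *P* = 0.987, edgeR). Of 6 tested tendon and perimysial genes, 5 were higher with spironolactone than with prednisolone (4 at an unadjusted *P* under 0.05, 0 past the threshold by edgeR, median log2 difference 1.34), against 53.4% and 11.4% of all genes for the first 2 counts. With prednisolone 2 of the 6 were above vehicle, against 47.8% of all genes. *Mkx*, a transcription factor of tendon cells, was lower with prednisolone than with vehicle (0.200 ± 0.133 against 1.28 ± 0.661 CPM, adjusted *P* = 0.0409, edgeR), at counts of 2, 7, and 11 against 64, 41, and 20. *Thbs4*, a tendon matrix gene, was at 31.1 ± 5.36 CPM with vehicle, 47.7 ± 11.4 with spironolactone, and 32.7 ± 4.16 with prednisolone. Of 7 tested nerve sheath genes, 5 were higher with spironolactone than with prednisolone, against 53.4% of all genes, with a median log2 difference of 0.28. Above vehicle were 4 of the 7 with spironolactone (median 0.37, against 50% of all genes) and 5 with prednisolone (median 0.09, against 47.8%). None of the 7 passed the threshold (edgeR). *Pmp22*, a myelin gene and the highest of that list by TPM, was at 117 ± 6.24, 112 ± 14.1, and 144 ± 15.05 CPM with vehicle, spironolactone, and prednisolone. Of the 8 satellite cell and myoblast genes, 2 were above vehicle with spironolactone, against 50% of all genes, with a median log2 difference of -0.27, and *Myog* was at 0.963-fold.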
